A study of Mus musculus with 8 samples.

Results

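The Rab genes examined here were the protein-coding genes of the deposited table whose symbol is Rab followed by a number, with or without further letters or digits. The rule took 68 of 52636 genes. Of these, 59 encode Rab GTPases, and 9 encode partner proteins whose symbols share the pattern (Rab3gap1, Rab3gap2, Rab3il1, Rab3ip and Rab11fip1 to Rab11fip5). Rab GTPases are small switches of membrane traffic. In the GTP-bound state each sits on a particular compartment (Golgi, early, recycling or late endosome, secretory vesicle) and recruits effectors that move, tether or fuse vesicles. Exchange factors switch them on, GTPase activating proteins switch them off, and GDI proteins carry them between membrane and cytosol. In muscle and fat, Rab proteins downstream of Tbc1d4 are best known for the delivery of the glucose transporter GLUT4 to the cell surface.

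RNA of muscle satellite cells (SCs), which regenerate muscle fibres, was sequenced in 4 control (untrained) and 4 exercise libraries. The mice were C57B/6J males, 10 weeks old when assigned to the groups, and SCs were gated on CD34 and α7-integrin after cells with CD31, CD45, CD11b or Sca1 had been removed. Training in the exercise group was treadmill running at 12 m/min, 30 min/day and 4 days/week, over 4 weeks. Each library was made from about 800 SCs with a kit designed for single-cell RNA. The labels do not say whether the libraries came from separate animals, while the study describes the sequenced samples as separate mice. If any are not, the p-values below measure a spread that is partly technical. In such bulk samples, fewer cells of a type and less RNA per cell cannot be told apart.

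Values were FPKM, that is, reads scaled by gene length and by a library size, and the whole reads behind each value could be recovered. Control libraries held 2339966 to 3013354 reads on genes and exercise libraries 1011737 to 1200221. The library size in the values was not the read total but a median-of-ratios size factor, equal to 0.249 of the reads in exercise 4 and to 0.924 to 1.58 of them in the other libraries. One read was therefore worth more FPKM in exercise 4 than elsewhere. Mitochondrial transcripts took 50.2% and 68.7% of the reads of exercise 3 and 4, against 2.09% to 15.3% in the others. Some libraries may share RNA. The chi-square between exercise 1 and 2, divided by its degrees of freedom, was 3.86, against 82.6 to 710.6 in the other pairs within a group. Control 4 kept a median of 0.281 of the share of reads of 345 genes found in control 1 and not in control 3, and 0.714 of that of 658 genes found in control 3 and not in control 1. In exercise 3, 139 genes of exercise 1 without reads in exercise 4 were at 0.299 of their share in exercise 1, and 142 genes with the opposite pattern were at 0.677 of their share in exercise 4. The sort label was not borne out by all of its markers. Pax7, Itga7, Cdh15 and Calcr, which define SCs, had 0 reads in all 8 libraries, and the 10 SC markers summed to 3.37 to 36.4 FPKM in control and 31.9 to 83.6 FPKM in exercise libraries. Itga7 encodes the α7-integrin of the gate. That sum was mostly Sdc4, with 3.25 to 33.9 FPKM in control and 30.0 to 76.1 FPKM in exercise libraries. Cd34, the other gate marker, had 0.12 to 1.48 FPKM and 1.90 to 9.63 FPKM, whereas Vcam1, Myod1, Myf5 and Cxcr4 had reads in control libraries alone, up to 1.44 FPKM. The 7 muscle fibre markers, all with reads, summed to 28600 to 46810 FPKM in control and 15200 to 51060 FPKM in exercise libraries. The 7 fibroblast markers, also all with reads, summed to 1418 to 2225 FPKM and 1504 to 2265 FPKM. Smooth muscle markers (3 of 6 with reads) summed to 2.88 to 46.1 FPKM in control and 5.72 to 89.3 FPKM in exercise libraries, and tendon markers (4 of 4) to 456 to 1012 FPKM and 243 to 1378 FPKM. None of 7 immune markers had a read. Of 6 endothelial markers only Kdr and Tek had reads, and the list summed to 0.0925 to 2994 FPKM in control and 4.42 to 26.2 FPKM in exercise libraries, with Pecam1 and Cdh5 at 0. The part of these differences in the results below was not tested.

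Of the 68 Rab genes, 40 had reads in at least 1 library and 28 had none. The share without reads was 41.2%, against 64.5% of all protein-coding genes. Only 7 genes had reads in all 8 libraries (Rab2a, Rab1a, Rab6a, Rab11a, Rab14, Rab28 and Rab5b), 16 had them in control libraries alone and 4 in exercise libraries alone. Control libraries 1 to 4 held reads of 26, 25, 29 and 32 Rab genes, and exercise libraries 1 to 4 of 16, 21, 22 and 15. The deeper control libraries thus all held more Rab genes than any exercise library. At an equal depth of 1011737 reads, the expected numbers were 25.2, 21, 23.1 and 30.3 in control and 15.9, 21, 21.5 and 14.6 in exercise libraries, and the groups overlapped. For all protein-coding genes they did not overlap at that depth, with 18.7% to 26.0% detected in control and 8.92% to 12.8% in exercise libraries. In every library a larger share of Rab genes than of protein-coding genes had reads, as the plot of detection at equal depth shows.

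**Figure D1:**
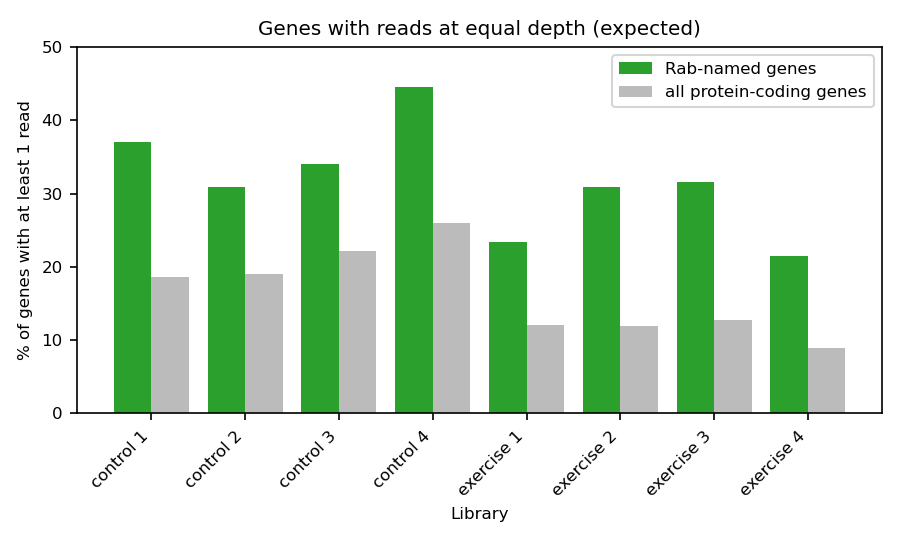
Bars give the percentage of genes expected to have at least 1 read in each library when every library is brought to 1011737 reads, for the 68 Rab-named genes (green) and all protein-coding genes (grey). Rab genes lie between 21.5% and 44.6%, above protein-coding genes (8.92% to 26.0%) in each of the 8 libraries.

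The genes without reads came from every compartment. Of the 13 GTPases of exocytosis and regulated secretion, 9 had no read, among them the neuronal vesicle proteins Rab3a, Rab3b and Rab3c, the secretory granule and melanosome proteins Rab27a and Rab27b, and Rab13, Rab26, Rab37 and Rab44. Of the 14 Golgi GTPases, 6 had none (Rab19, Rab2b, Rab33a, Rab36, Rab43 and the neuronal isoform Rab6b). Of the 9 late endosome and lysosome GTPases, 4 had none (Rab29, Rab32, Rab38 and Rab9b). The others were Rab17 (early endosome), Rab25 and Rab4b (recycling), Rab39, Rab39b and Rab42 (less studied), and the partners Rab11fip1, Rab11fip4 and Rab3gap2. A count of 0 allows up to 3 reads in a library. That floor covers counting error alone, because the reads were amplified.

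A further 15 Rab genes had reads but a mean under 1 FPKM over the 8 libraries, the filter used for testing. Their highest count in any library was 40 reads. Libraries with reads numbered 4 for Rab34, 3 for Rab30 and 1 for Rab1b among the Golgi GTPases, and 3 each for the early endosome GTPases Rab22a and Rab5c. They numbered 6 for Rab11b, 3 for Rab15 and 2 for Rab4a (recycling), 3 each for Rab24 and Rab7b (late endosome), 4 for the ciliary Hedgehog regulator Rab23 and 3 for Rab40b. Among the partners they numbered 3 for Rab11fip3, 3 for Rab3gap1 and 1 for Rab11fip2. Of these 15, 10 had reads in control libraries alone, 2 (Rab1b and Rab30) in exercise libraries alone and 3 in both. The mean was 0.653 FPKM for Rab4a, the highest under the filter, and 1.13 FPKM for Rab5b, the lowest above it.

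**Figure D2:**
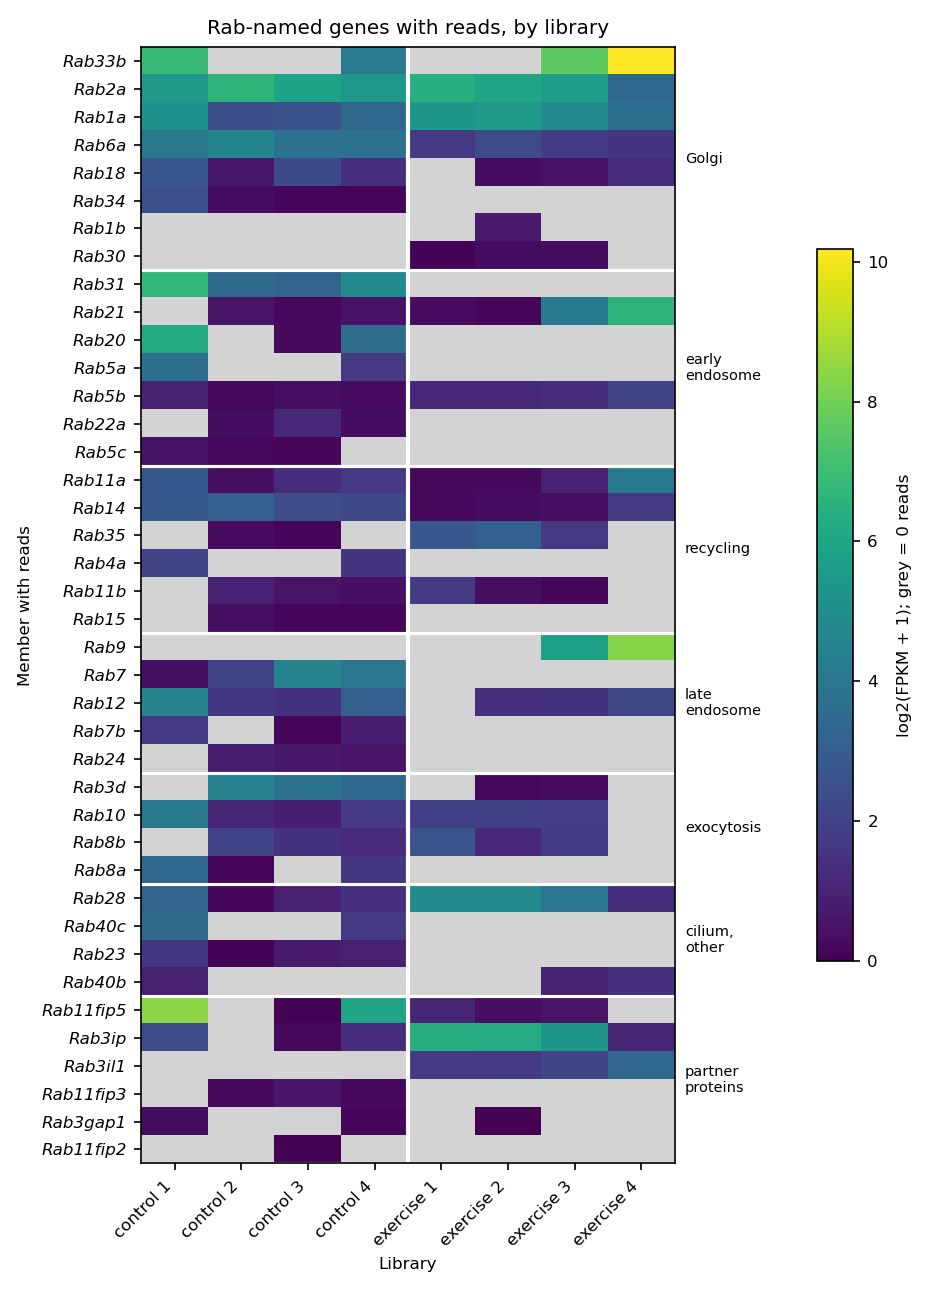
Each cell gives log2(FPKM + 1) of one of the 40 Rab-named genes with reads (vertical axis, grouped by compartment) in one library (horizontal axis), and grey marks 0 reads. Rab31 and Rab7 are grey in all 4 exercise libraries, Rab3il1 in all 4 control libraries, and Rab33b is found in 2 libraries of each group.

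The 25 Rab genes past the filter (22 GTPases and 3 partners) were compared between exercise and control with limma on log2(FPKM + 1), with Benjamini-Hochberg adjustment over the 4328 genes tested. Of the 25, 6 had 0 reads in all exercise libraries and 2 had 0 reads in all control libraries. Such genes passed the filter through 1 group alone, so their tests are not independent of the filter. At an adjusted p under 0.05, 5 were lower in exercise (Rab31, Rab6a, Rab14, Rab7 and Rab3d), which is 20% of the 25, against 26.8% of all genes tested. Another 2 were higher (Rab3il1 and Rab3ip), or 8%, against 8.78% of all genes. Both shares were thus close to or under those of all genes. The 5 that fell were all GTPases, 1 each from the Golgi (of 5 tested), early endosome (of 5), recycling (of 3), late endosome (of 3) and exocytosis (of 4) groups. The 2 that rose were both partner proteins, and no GTPase passed the test upward in this fit. At an unadjusted p under 0.05, 2 GTPases did so (Rab35 and Rab28), as did 514 of the 4328 genes tested. Other fits called GTPases higher, given here with the share of all genes called higher in parentheses. They were Rab35 by voom on the recovered reads (10.4%) and Rab5b with a filter of 1 FPKM in 4 libraries (12.1%). Rab1a, Rab28 and Rab5b were called without control 1 (9.91%), and Rab28 and Rab35 without exercise 4 (13.1%). These 4 and Rab10 were called with array quality weights (18.8%).

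Separate groups, in which the 4 exercise values lay all below or all above the 4 control values, were found for 4 Rab genes downward (Rab31, Rab6a, Rab14 and Rab7), against 24% of all genes tested. They were found for 2 upward (Rab3il1 and Rab5b), against 7.62% of all genes. As RPM, the reads of a gene scaled by the read total of the library, a scale added after seeing the data, the 4 stayed separate and Rab18 joined them (25.9% of all genes), and upward Rab3il1 was the only one (5.06%). The median log2 fold change was -0.52 over the 25 Rab genes and -1.42 over all genes tested, or -0.22 and -0.78 with genes at 0 in 1 group set to 3 reads a library there. For the 22 GTPases it was -0.86, or -0.34 with that setting. By compartment, the medians were -0.49 for Golgi, -1.35 for early endosome, -0.16 for recycling, -1.42 for late endosome and -0.91 for exocytosis genes, each over 3 to 5 genes, and 0.52 for the 2 ciliary and less studied ones. With the setting of 3 reads they were -0.49, -0.05, -0.16, -1.42, -0.49 and 1.06 in the same order. Under quantile normalization the median of the 25 Rab genes turned to 0.37 and that of all genes moved to -0.44. Calls over all genes then went from 1161 lower and 380 higher to 375 lower and 566 higher. Rab31 was then the only Rab gene lower, and 5 were higher (Rab1a, Rab28, Rab3il1, Rab3ip and Rab5b). Calls were also lost in smaller fits. Without each library in turn, Rab31 was called in 8 of 8 fits, Rab3il1 in 7, Rab6a in 3, Rab14 and Rab3ip in 2, and Rab7 and Rab3d in 1. All 7 were called without control 1, whereas without control 3, exercise 1, exercise 2 or exercise 3 only Rab31 and Rab3il1 were, and without control 4 only Rab31. Over these fits the log2 change ran from -2.44 to -2.10 for Rab6a, -2.28 to -1.78 for Rab14, -3.54 to -2.17 for Rab7, -3.79 to -2.28 for Rab3d and 3.29 to 5.04 for Rab3ip. Over all genes the calls went down to between 360 and 843 lower in 7 of the 8 fits and were 1503 without control 1. When exercise 1 and 2 were averaged into 1 sample, Rab31 and Rab3il1 alone were called. With control 4 and exercise 3 also left out, limma called no Rab gene and no other gene, and 1 Rab gene had an unadjusted p under 0.05.

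**Figure D3:**
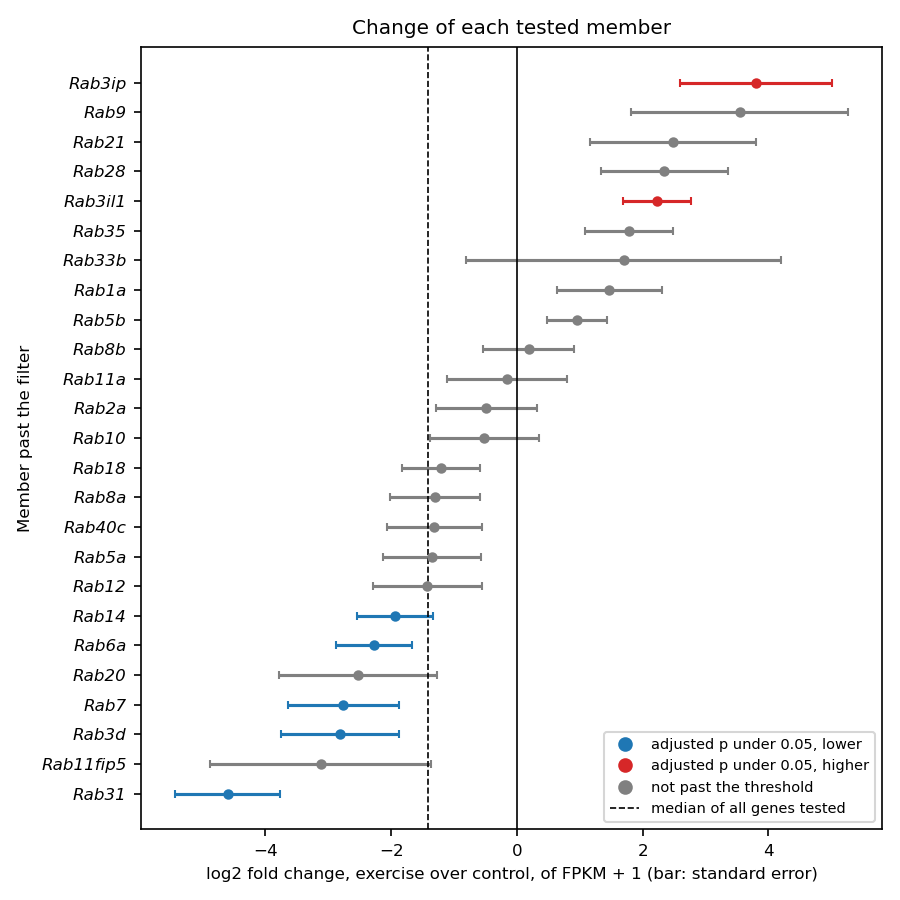
Points give the fitted log2 fold change (exercise over control, of FPKM + 1) of the 25 tested Rab-named genes and bars its standard error, with blue for lower and red for higher at an adjusted p under 0.05, and the dashed line marks the median of all 4328 genes tested (-1.42). The 5 blue points lie between -4.60 and -1.93, and the red points are at 2.23 (Rab3il1) and 3.80 (Rab3ip).

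Rab31 (chromosome 17, 65651726 to 65772752), which acts between the trans-Golgi network and early endosomes, had 106, 10.3, 8.55 and 28.9 FPKM in control 1 to 4, from 845, 110, 116 and 400 reads. It had 0 reads in all 4 exercise libraries. Every control library held the gene and no exercise library did. Its mean of 38.4 ± 46.0 FPKM (SD, n = 4) in control was at least 31.8-fold higher than in exercise, with exercise libraries set to 3 reads each, and at least 13.2-fold higher without control 1. The limma adjusted p was 0.00485, with a fitted log2 change of -4.60 ± 0.84 (SE) that depends on the pseudocount, and the fall kept an adjusted p under 0.05 without each library in turn.

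Rab7 (chromosome 6, 87999106 to 88045270), the GTPase of late endosome to lysosome traffic, had 0.334, 3.25, 22.2 and 14.9 FPKM in control 1 to 4, and again 0 reads in exercise. Control 1 held only 2 reads of it, against 26, 226 and 155 in control 2 to 4. Control 3 and 4 were thus far above control 1 and 2. The smooth muscle marker Acta2 was high in the same libraries, with 0.734, 0, 43.3 and 35.1 FPKM in control 1 to 4 and at most 2.03 FPKM in exercise libraries. In the same list Myh11 went the other way, with 0 reads in control and 3.14 to 71.5 FPKM in exercise libraries. Pdgfrb had 2.02 to 4.65 FPKM in control, 7.90 to 17.5 FPKM in exercise 1 to 3 and 0.633 FPKM in exercise 4. Rgs5, Cspg4 and Tagln had 0 reads. The part of these markers in the fall of Rab7 was not tested. The mean in control was at least 6.32-fold higher than in exercise, or at least 3.83-fold without control 3 (limma adjusted p = 0.0385, log2 change -2.76 ± 0.88). In exercise 4, 3 reads would amount to 3.99 FPKM, more than control 1 or 2 held. Of its 75-base words, 8.95% also lie in the pseudogene Rab7-ps1, which had 0 reads.

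Rab6a (chromosome 7, 100607410 to 100641268) directs retrograde traffic through the Golgi. It had 16.4, 23.4, 13.4 and 13.2 FPKM in control 1 to 4 and 2.25, 4.03, 2.42 and 1.86 FPKM in exercise 1 to 4. All libraries held it, the replicates lay close together, and the lowest control value was above the highest exercise value. The means were 16.6 ± 4.76 and 2.64 ± 0.958 FPKM (SD, n = 4), and the log2 change was -2.27 ± 0.61 (limma adjusted p = 0.0233). Under quantile normalization it was -0.88 with an adjusted p of 0.33. The fibroblast marker Pdgfra also had separate groups, with 9.44, 35.0, 20.6 and 16.2 FPKM in control 1 to 4 and 7.99, 6.88, 4.95 and 2.42 FPKM in exercise 1 to 4, as did the fibre marker Myh1, with 12.4, 15.5, 6.82 and 7.74 FPKM in control and 0, 0, 0.994 and 2.73 FPKM in exercise libraries. In the same lists Lum went the other way, with 90.8 to 122.9 FPKM in control and 310.6 to 531.5 FPKM in exercise libraries. The other members of both lists overlapped between the groups. The part of these markers in the fall of Rab6a was not tested. Exons of Mrpl48 on the opposite strand cover 19.0% of Rab6a, and Mrpl48 had 3820 reads in the 8 libraries. Strand use in counting is not given in the sources used here, so reads from the shared stretch cannot be told apart.

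Rab14 (chromosome 2, 35180205 to 35201120), which links Golgi and recycling endosomes and is a known substrate of Tbc1d4, had 5.89, 7.50, 4.28 and 3.56 FPKM in control 1 to 4. It had 0.177, 0.278, 0.333 and 2.31 FPKM in exercise 1 to 4, from 4, 6, 5 and 9 reads. Exercise 4 was closest to control, and the groups did not overlap. The log2 change was -1.93 ± 0.61 (limma adjusted p = 0.0371), but under quantile normalization it turned to 0.00616. Myh1 and Pdgfra, with the values given for Rab6a, were lower in the same libraries, while Lum was higher there and the other members of their lists overlapped between the groups. The part of these markers in the fall of Rab14 was not tested.

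Rab3d (chromosome 9, 21907491 to 21918192), a GTPase of secretory granules, had 0, 22.0, 12.9 and 9.57 FPKM in control 1 to 4 and 0, 0.149, 0.215 and 0 FPKM in exercise 1 to 4. It was abundant in control 2 to 4, without reads in control 1, and at 1 read each in exercise 2 and 3, so the groups overlapped. The log2 change was -2.81 ± 0.94 (limma adjusted p = 0.0429), and by voom on the recovered reads the adjusted p was 0.132. The endothelial marker Kdr had 0, 2994, 1669 and 1076 FPKM in control 1 to 4 and at most 0.53 FPKM in exercise libraries, high in the same 3 libraries as Rab3d. Tek, the other endothelial marker with reads, had the opposite pattern, with at most 0.0925 FPKM in control and 24.0, 25.8, 14.7 and 4.42 FPKM in exercise 1 to 4, and Pecam1, Cdh5, Emcn and Cldn5 were at 0 in all 8. Their part in the fall of Rab3d was not tested.

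The sequences around the start sites of the 4 genes that fell with separate groups are printed to show what these genes have in common there and where they differ. Each window runs from 250 bases before to 50 bases after the RefSeq start (GRCm38.p6) and is read 5′ to 3′ on the gene's strand, at chr17:65772703-65773002 for Rab31 (minus strand), chr6:88045221-88045520 for Rab7 (minus), chr7:100607336-100607635 for Rab6a (plus) and chr2:35201071-35201370 for Rab14 (minus). Capitals mark the E-box letters CANNTG, which read the same on both strands and are the motif of the bHLH family, to which the myogenic factors belong.
Rab31: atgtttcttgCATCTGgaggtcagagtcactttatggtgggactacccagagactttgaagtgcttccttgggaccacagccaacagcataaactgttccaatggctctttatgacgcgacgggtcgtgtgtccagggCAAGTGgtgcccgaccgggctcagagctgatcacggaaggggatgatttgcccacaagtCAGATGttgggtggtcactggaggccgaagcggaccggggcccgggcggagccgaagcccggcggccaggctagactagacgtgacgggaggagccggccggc
Rab7: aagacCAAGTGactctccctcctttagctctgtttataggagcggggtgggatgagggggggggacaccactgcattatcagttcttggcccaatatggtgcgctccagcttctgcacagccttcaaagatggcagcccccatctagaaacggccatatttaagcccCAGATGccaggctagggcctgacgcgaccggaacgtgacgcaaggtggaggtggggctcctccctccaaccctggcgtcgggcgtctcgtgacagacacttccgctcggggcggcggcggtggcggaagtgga
Rab6a: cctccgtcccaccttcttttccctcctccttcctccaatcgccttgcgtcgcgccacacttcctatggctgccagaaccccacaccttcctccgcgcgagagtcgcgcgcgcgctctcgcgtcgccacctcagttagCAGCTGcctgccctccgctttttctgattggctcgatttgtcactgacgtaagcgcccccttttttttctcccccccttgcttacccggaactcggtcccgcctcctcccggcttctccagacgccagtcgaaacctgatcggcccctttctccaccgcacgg
Rab14: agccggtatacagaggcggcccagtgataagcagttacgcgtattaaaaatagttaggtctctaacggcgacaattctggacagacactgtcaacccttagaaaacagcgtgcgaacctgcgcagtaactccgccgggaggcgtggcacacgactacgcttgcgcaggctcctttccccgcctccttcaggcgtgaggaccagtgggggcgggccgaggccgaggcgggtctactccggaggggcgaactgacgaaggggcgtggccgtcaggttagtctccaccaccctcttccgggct
Rab31 held 3 such matches, Rab7 2, Rab6a 1 and Rab14 0. The letters occur in 72.3% of all 32851 RefSeq windows of this length and in 12 of the 23 tested Rab genes with a window. CACGTG, a form of CANNTG, occurred in 3 of the 23 (7.15% of all windows), TATAAA in 1 (13.6%) and CCAAT in 11 (37.4%), on either strand. A match is a description of the letters, not a binding site.

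Both genes called higher encode related exchange factors of the Rab3 and Rab8 GTPases. Rab3il1 (chromosome 19, 10001669 to 10038380) had 0 reads in all 4 control libraries and 2.24, 2.35, 3.38 and 9.17 FPKM in exercise 1 to 4, from 17, 17, 17 and 12 reads. It was found in every exercise library and in no control library. Its mean of 4.28 ± 3.30 FPKM (SD, n = 4) in exercise was at least 20.4-fold higher than in control, with control libraries set to 3 reads each, or at least 12.7-fold without exercise 4. The limma adjusted p was 0.0157 (log2 change 2.23 ± 0.54) and 0.0629 without control 4, the only library whose removal ended the call.

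Rab3ip (chromosome 10, 116905784 to 116950769), also known as Rabin8, had 3.98, 0, 0.161 and 1.5 FPKM in control 1 to 4 and 79.1, 77, 41.2 and 1.09 FPKM in exercise 1 to 4. It was high in exercise 1 to 3 and, with 1 read, within the control range in exercise 4. The log2 change was 3.80 ± 1.21 (limma adjusted p = 0.0382), and with exercise 1 and 2 averaged it was 3.29 with an adjusted p of 0.0954. Some markers of other cell types were high in the same exercise libraries, the sums of their lists being given above. The smooth muscle marker Myh11 had 0 reads in control and 70.1, 71.5, 35.6 and 3.14 FPKM in exercise 1 to 4, the tendon marker Scx at most 0.442 FPKM in control and 101, 102, 49.2 and 3.06 FPKM in exercise 1 to 4, and Tek the values given for Rab3d. Others of these lists were not. Acta2 and Kdr were high in some control libraries instead, with the values given for Rab7 and Rab3d. The tendon marker Tnmd overlapped between groups, with 233 to 731 FPKM in control and 69.2 to 774 FPKM in exercise libraries, as did Fmod and Thbs4. The part of these markers in the rise of Rab3ip was not tested. Of the GTPases that these factors act on, Rab3d fell, Rab3a, Rab3b and Rab3c had no reads, and Rab8a and Rab8b did not pass the test. Rab8a, of exocytosis and cilium growth, had 9.51, 0.140, 0 and 2.04 FPKM in control libraries and 0 reads in exercise libraries (limma adjusted p = 0.157). Rab8b had a log2 change of 0.19 ± 0.72 (limma adjusted p = 0.836).

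**Figure D4:**
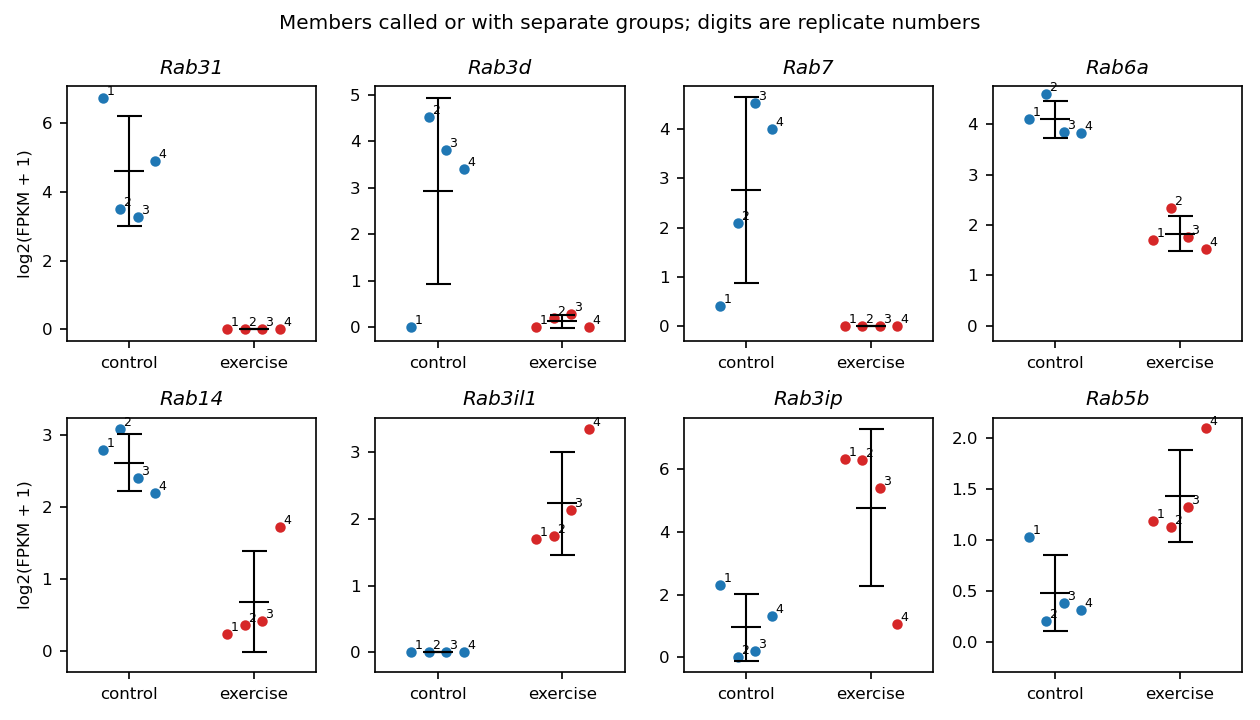
Each panel plots log2(FPKM + 1) of 1 Rab-named gene in the 4 control (blue) and 4 exercise (red) libraries, with the replicate number beside each point and the mean ± SD as black bars. Rab31, Rab7, Rab6a and Rab14 are lower in every exercise library than in any control library, Rab3il1 and Rab5b are higher, and Rab3d and Rab3ip overlap through control 1 and exercise 4, respectively.

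Rab5b, an early endosome GTPase of the Rab5 trio that drives endosome fusion, had 1.04, 0.155, 0.305 and 0.239 FPKM in control 1 to 4 and 1.28, 1.19, 1.5 and 3.30 FPKM in exercise 1 to 4. All exercise values exceeded all control values on this scale. As RPM they did not, with 4.27 in control 1 and 3.46, from 4 reads, in exercise 4. In the fit across all genes it did not pass (log2 change 0.96 ± 0.48, limma adjusted p = 0.131). Of its 75-base words, 7.93% also lie in the pseudogene Gm13991, which had 0 reads.

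The 6 highest mean FPKM values over the 8 libraries were those of Rab33b, Rab2a, Rab11fip5, Rab9, Rab3ip and Rab1a. Exercise 4 alone gave 77.7% of the summed FPKM of Rab33b and 85.0% of that of Rab9. By mean RPM per kilobase of gene, Rab31 (21.01) ranked above Rab9 (16.45) and took its place among the 6. Rab2a (chromosome 4, 8535644 to 8607778), which acts in traffic from the endoplasmic reticulum to the Golgi, had 44.4, 97.4, 58.4 and 41.5 FPKM in control 1 to 4 and 82.4, 64.1, 49.0 and 9.76 FPKM in exercise 1 to 4. All 8 libraries held it, and exercise 4, with 6 reads, was lowest. The log2 change was -0.49 ± 0.81 (limma adjusted p = 0.628), and it was 0.16 without exercise 4 and 0.37 under quantile normalization. Rab1a, of the same transport step, had 35.6, 4.47, 4.79 and 9.38 FPKM in control and 40.3, 44.0, 28.3 and 11.9 FPKM in exercise libraries. Its log2 change was 1.47 ± 0.84 (limma adjusted p = 0.168), with control 1 inside the exercise range.

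The other abundant Rab genes had most of their FPKM in a few libraries. Rab33b (chromosome 3, 51483920 to 51496232), a Golgi GTPase that binds the autophagy protein Atg16l1, had 115, 0, 0 and 17.0 FPKM in control 1 to 4 and 0, 0, 200 and 1156 FPKM in exercise 1 to 4. It was either abundant or without reads, in both groups alike. As RPM they were 400, 0, 0 and 85.7 in control and 0, 0, 652 and 1020 in exercise libraries, so the gap between exercise 3 and 4 was smaller on that scale. The log2 change of the FPKM values was 1.70 ± 2.51 (limma adjusted p = 0.585) and turned to -0.21 without exercise 4. Rab33b alone gave 70.8% of the summed FPKM of the 68 Rab genes in exercise 4 and 46.9% in exercise 3.

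Rab9, which returns mannose 6-phosphate receptors from late endosomes to the Golgi, had 0 reads in control libraries and in exercise 1 and 2, and 56.2 and 319 FPKM in exercise 3 and 4. Its exercise mean was at least 172-fold above control, or at least 34.4-fold without exercise 4, yet the limma adjusted p was 0.126. Rab21, an early endosome GTPase of integrin traffic, had 0 to 0.453 FPKM in control libraries and 0.237, 0.124, 16.1 and 94.2 FPKM in exercise 1 to 4 (limma adjusted p = 0.148). Rab33b, Rab9 and Rab21 thus were all highest in exercise 3 and 4, the libraries with 50.2% and 68.7% mitochondrial reads, whose part in these values was not tested. Rab33b was also high in control 1 and 4, where Rab9 and Rab21 were at or near 0. Exercise 3 held 0.633 to 0.652 of the share of reads that these 3 genes had in exercise 4, close to the 0.677 found over 142 genes.

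Rab11fip5, a Rab11 effector, had 343, 0, 0.0418 and 61.1 FPKM in control 1 to 4 and 1.07, 0.307, 0.442 and 0 FPKM in exercise 1 to 4 (log2 change -3.12 ± 1.76, limma adjusted p = 0.165). Rab20, a GTPase of phagosome and endosome maturation, had 72.7, 0, 0.184 and 11.5 FPKM in control and 0 reads in exercise libraries (limma adjusted p = 0.129). Both were high in control 1, lower in control 4 and close to 0 elsewhere. Rab5a, Rab40c (which joins a ubiquitin ligase) and Rab8a had that pattern too, with 0 reads in exercise libraries and limma adjusted p of 0.171, 0.171 and 0.157. Control 4 held 0.214 to 0.313 of the share of reads that Rab11fip5, Rab20, Rab33b, Rab40c, Rab5a and Rab8a had in control 1, beside 0.281 over 345 genes. Of the 25 tested Rab genes, 14 had over 50% of their summed FPKM in 1 library (8 in control 1, 5 in exercise 4 and 1 in control 3), as did 43.7% of the 3726 protein-coding genes past the filter.

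**Figure D5:**
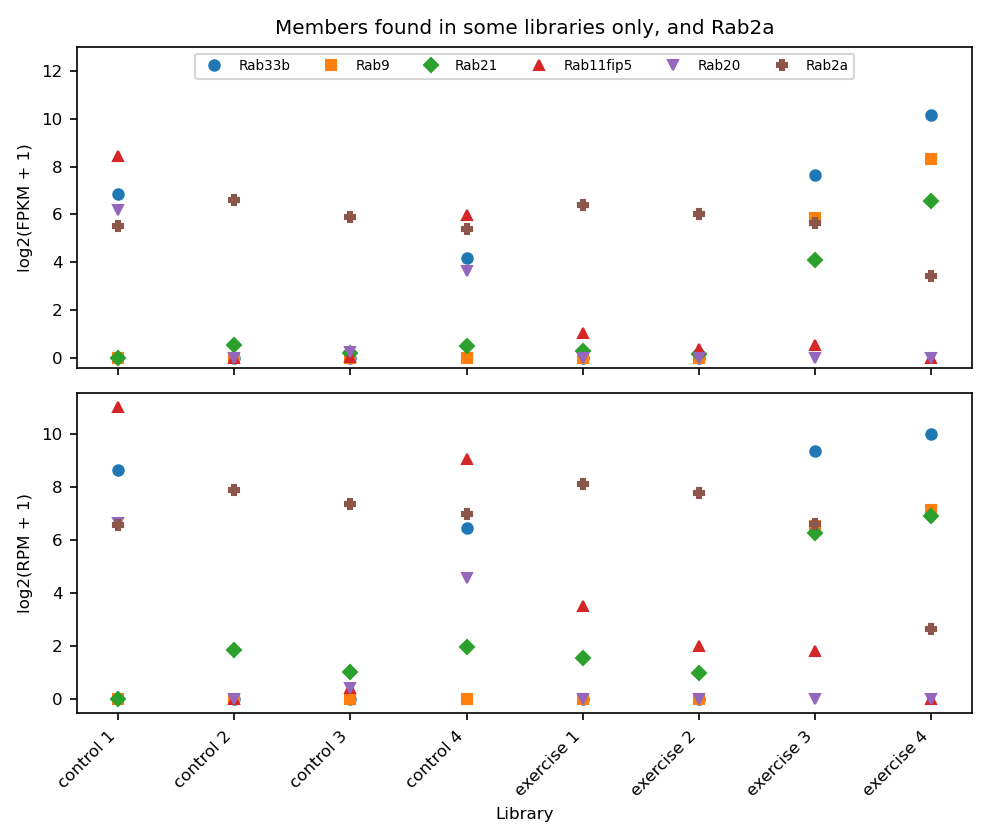
Points give 6 Rab-named genes in each library as log2(FPKM + 1) in the upper panel and log2(RPM + 1) in the lower panel. Rab2a is present in all 8 libraries, Rab11fip5 and Rab20 are high in control 1 and 4, Rab9 and Rab21 in exercise 3 and 4, and Rab33b in all 4 of these.

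Among the tested GTPases not yet described, Rab35, which acts in fast recycling, and Rab28, linked to cilia, pointed upward. Rab35 had 0, 0.232, 0.0908 and 0 FPKM in control and 5.73, 7.78, 2.24 and 0 FPKM in exercise libraries (log2 change 1.79 ± 0.70, limma adjusted p = 0.0665). Rab28 had 8.47, 0.144, 0.905 and 1.72 FPKM in control and 29.4, 29.3, 14.9 and 1.53 FPKM in exercise libraries (log2 change 2.34 ± 1.01, limma adjusted p = 0.0897). Both were highest in exercise 1 and 2, and in both exercise 4 lay within the control range. The other 4 had log2 changes of -1.21 for Rab18 (lipid droplets and endoplasmic reticulum), -1.42 for Rab12 (degradation of the transferrin receptor), -0.52 for Rab10 (GLUT4 vesicles) and -0.16 for the recycling GTPase Rab11a, with limma adjusted p of 0.138, 0.188, 0.632 and 0.895. Under quantile normalization Rab18, Rab10 and Rab11a turned to 0.35, 0.85 and 1.34. Rab10 also turned to 0.20 without control 1, which held 16.1 FPKM of it against 0.802 to 2.29 FPKM in control 2 to 4.

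Proteins that load, switch or read Rab GTPases were taken from 4 lists of 103 genes in all, of which 102 were in the table, 68 had reads and 32 passed the filter. With limma, 7 were lower (21.9%) and 5 higher (15.6%) in exercise at an adjusted p under 0.05, against 26.8% and 8.78% of all genes tested. The median log2 change of the 32 was -1.63, against -1.42 over all genes. Of the 5 genes of prenylation and membrane cycling, 1 rose and 2 fell. Gdi2, which extracts GDP-bound Rab proteins from membranes, had 0, 1.14, 1.48 and 0.618 FPKM in control 1 to 4 and 128, 104, 68.9 and 76.2 FPKM in exercise 1 to 4. It was high in every exercise library and near 0 in every control library (log2 change 5.75 ± 0.65, limma adjusted p = 0.000653). As FPKM, the fibroblast marker Lum, with 90.8 to 123 FPKM in control and 311 to 531 FPKM in exercise libraries, and Tek were also higher in every exercise library than in any control library. The markers were not compared as RPM, and 1 read counted for more FPKM in exercise 4 than elsewhere. Of the same lists, Pdgfra went the other way, as did Kdr in control 2 to 4, with the values given for Rab6a and Rab3d. The part of these markers in the rise of Gdi2 was not tested. Arl6ip5, a prenylated Rab acceptor family protein, had 132, 11.3, 3.91 and 28.2 FPKM in control and 0 reads in exercise libraries (limma adjusted p = 0.0102). Rabggtb, a subunit of the enzyme that prenylates Rab proteins, also fell (limma adjusted p = 0.0484), from a control mean of 2.05 FPKM to 0 reads. Arl6ip5 and Rabggtb passed the filter through their control values alone.

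Of the 9 exchange factors of these lists, which leave out Rab3il1 and Rab3ip, 3 fell and none rose, against 26.8% and 8.78% of all genes tested. Those that fell were Rin2, for Rab5, and the TRAPP subunits Trappc1 and Trappc3, for Rab1. All 3 had 0 reads in exercise libraries and passed the filter through their control values alone. Trappc1 had 42.7, 25.3, 15.2 and 18.3 FPKM in control and 0 reads in exercise libraries (limma adjusted p = 0.00112). Of 6 GTPase activating proteins 1 (16.7%) fell, Tbc1d4, and none rose. It had 35.8, 21.4, 11.7 and 12.5 FPKM in control and 0.0779, 0, 0 and 0 FPKM in exercise libraries (log2 change -4.25 ± 0.62, limma adjusted p = 0.00169), so that 1 exercise library alone held any read. Beside it, Rab14 fell, and Rab10 and Rab8a, other known substrates, had the values given above.

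Of the 12 effectors 4 rose, beside 8.78% of all genes tested, and Optn, an autophagy receptor that binds Rab8, fell (limma adjusted p = 0.0495), beside 26.8%. Optn had 0 reads in exercise libraries and passed the filter through its control values alone, as Bicd1 did through its exercise values. Bicd1, a dynein adaptor that binds Rab6, had 0 reads in control and 4.87, 4.03, 3.23 and 1.65 FPKM in exercise libraries (limma adjusted p = 0.0122), while Rab6a fell. Osbpl1a, a sterol-binding effector of Rab7, had 2.48, 0, 0.0347 and 0.577 FPKM in control and 38.8, 32.9, 19.9 and 5.16 FPKM in exercise libraries (log2 change 3.72 ± 0.81, limma adjusted p = 0.0102). Rilpl1 had 9.03, 0.796, 1.25 and 2.34 FPKM in control and 197, 184, 99.2 and 9.86 FPKM in exercise libraries (log2 change 4.54 ± 1.06, limma adjusted p = 0.0134). Uso1, a tether that binds Rab1, had 0.522, 0, 0.613 and 0.816 FPKM in control and 13.7, 17.1, 8.33 and 2.97 FPKM in exercise libraries (log2 change 2.78 ± 0.68, limma adjusted p = 0.016). All 4 were lowest, among exercise libraries, in exercise 4. As FPKM, exercise libraries were above control libraries without overlap for each of them, as for 7.62% of all genes tested. Their separation was not examined as RPM, and the library size behind the FPKM of exercise 4 was only 0.249 of its reads. Bicd1, Osbpl1a, Rilpl1 and Uso1 were high in the same exercise libraries as Myh11, Scx and Tek. Of the same lists, Acta2 and Kdr were high in some control libraries instead, and the tendon marker Tnmd overlapped between groups. The part of these markers in the rises was not tested. With exercise 1 and 2 averaged and control 4 and exercise 3 left out, none of the 32 genes passed limma's test, and 4 had an unadjusted p under 0.05.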

How the data were processed

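Sorted SCs from 4 control and 4 exercise samples were sequenced. The authors deposited FPKM values per gene and library, and the submitters' processing notes name mm10, Bowtie 0.12.9, Cufflinks 2.1.1 and HTSeq. FPKM multiplied by gene length and divided by the smallest such product of the library gave whole numbers, taken as reads, for 100% of the values (tolerance 0.001). The library size in these values equalled a median-of-ratios size factor over 1023 genes. The study's methods test counts at an FDR-adjusted p under 0.05. Since the deposited values are FPKM, limma 3.58.1 in R 4.3.3 (lmFit, eBayes with a trend) was fitted to log2(FPKM + 1) at the same threshold. It covered 4328 genes whose mean reached 1 FPKM, and was tested on simulated data. Rows sharing a symbol were summed (101 fewer). Annotation was GENCODE M21 (GRCm38), which held all 68 Rab genes, 61 of them at equal coordinates, and promoters came from RefSeq (GRCm38.p6). Full values were given for genes with an adjusted p under 0.05 or groups that do not overlap, for the 6 highest means, and for the 8 other pathway genes of smallest p. The Rab genes and lists were chosen with earlier results of these data known. The fit was repeated with a pseudocount of 0.1, without a filter, with 1 FPKM in 4 libraries as filter, with quantile or equal-sum scaling, with the median-of-ratios scaling that the values already carry, without the trend, with array quality weights, with a replicate block, with libraries left out or averaged, and with voom on recovered reads. Separation of groups as RPM was added after seeing the data. Depth was 1011737 to 3013354 reads. Floors cover counting error only, while the SD and SE values measure the spread between libraries.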

Additional observations from a re-analysis of the deposited data

Results flagged for a closer look

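In groups of 4 libraries, a value was picked out when its gap to the nearest other value took more of the group's range than chance allows in about 1 of 20 groups. Of 56 such groups, 4 had one, where chance gives 2.8. In exercise 4, Rab10 was at 0 on the log2(FPKM + 1) scale, with 0 reads, against 1.83 to 1.95 in exercise 1 to 3. In exercise 4, Rab14 was at 1.73 on that scale, from 9 reads, against 0.23 to 0.41 in the other exercise libraries. The summed FPKM of the 68 Rab genes was 849 in control 1, against 140 to 241 in control 2 to 4, and Rab11fip5 gave 40.4% of it. That sum was 1634 in exercise 4, against 238 to 425 in exercise 1 to 3. As RPM, the Rab genes summed to 1337 in exercise 4 and to 1213 to 1284 in exercise 1 to 3, and to 3642 in control 1 and 587 to 1369 in control 2 to 4.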

How the results depend on the processing

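Rab genes called lower, with the share of all genes in parentheses, numbered 5 in the reported fit (26.8%), 2 with no filter (6.71%), 3 with 1 FPKM in 4 libraries (29.9%), 1 under quantile normalization (8.66%), 6 at an equal sum of FPKM (34.0%), 7 with array weights (50%) and 1 with exercise 1 and 2 averaged (9.51%). Those called higher numbered 2 in the reported fit (8.78%), 1 with no filter (2.59%), 5 under quantile normalization (13.1%), 1 at an equal sum (6.22%), 7 with array weights (18.8%) and 1 with the averaged libraries (4.05%). With control 4 and exercise 3 also left out, limma called 0 Rab genes and 0 pathway genes in either direction (unadjusted p under 0.05 in 1 and 4 of them). Without each library in turn, 1 to 5 Rab genes were lower (8.14% to 37.6% of all genes) and 0 to 5 higher (3.77% to 13.1%). Without control 4 only Rab31 was called, with 7 Rab genes at an unadjusted p under 0.05. Pathway genes called lower, with the same shares in parentheses, numbered 7 in the reported fit (26.8%), 13 with a pseudocount of 0.1 (33.4%) and 3 with no filter (6.71%). They numbered 3 under quantile normalization (8.66%) and with averaged libraries (9.51%), 15 with array weights (50%), and 3 to 8 without each library (8.14% to 37.6%). Those called higher numbered 5 in the reported fit (8.78%), 8 with array weights (18.8%) and 4 to 6 without each library (3.77% to 13.1%). Rab genes with separate groups numbered 2 lower and 5 higher under quantile normalization and 1 higher at an equal sum and as RPM, and 4 to 6 lower and 2 to 4 higher without each library. Of all genes, 5.06% were separate and higher as RPM, and the share is not given for the other fits. The replicate numbers did not pair the samples (correlations of deviations -0.02 to 0.04). With the number as a replicate block, 1 Rab gene was lower (Rab31; 18.2% of all genes), 1 higher (Rab3ip; 6.24%), and 5 pathway genes were lower and 4 higher.

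Directions turned in 5 Rab genes without 1 library, where log2 changes ran from -0.21 (without exercise 4) to 3.18 for Rab33b, from -0.82 to 0.16 (without exercise 4) for Rab2a, from -0.88 to 0.20 (without control 1) for Rab10, from -0.21 (without exercise 1) to 0.65 for Rab8b, which was -0.20 without control 1, and from -1.06 to 0.26 for Rab11a, which was 0.26, 0.22 and 0.21 without control 1, exercise 1 and exercise 2. Under quantile normalization, Rab14 became 0.00616, Rab18 0.35, Rab2a 0.37, Rab10 0.85 and Rab11a 1.34. With array weights, Rab33b became -0.61, Rab2a 0.29 and Rab10 0.82. With exercise 1 and 2 averaged Rab11a became 0.22, and in the fit that also omits control 4 and exercise 3 Rab8b became -0.16 and Rab11a 0.69. The cause was not tested. Rab40c, Rab5a and Rab8a fell under the filter without control 1, as did Rab5b without exercise 4, and gave no value there.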
